A study of Rattus norvegicus with 32 samples.

Results

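The comparison described here is that of UCP1 knockout rats with control rats after cold: 16 of the 32 libraries of the series, all of them from gastrocnemius, the large calf muscle, which is built mainly of fast fibres. The 16 were chosen by their labels alone, as the 7 control libraries (called cold controls below) and the 9 UCP1 knockout libraries (cold knockouts) taken after 2 weeks at 4 °C. All rats of the series were male and 20 weeks old and, per the series title, were fed chow. The other 16 libraries, 7 of control and 9 of UCP1 knockout rats sampled before the cold exposure and labelled as room temperature, serve only to show where a genotype difference was also present without cold. The labels call the controls wild-type as well as control, name no strain and no allele, and do not say whether the same animals gave room-temperature and cold muscle. RNA was read from the 3′ end of transcripts, which gives 1 tag per transcript and no isoform or splicing information.

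UCP1 is a proton channel of the inner mitochondrial membrane of brown fat cells, where it lets respiration run as heat instead of ATP synthesis. Animals without it depend on other heat sources in the cold, above all on muscle: shivering, and cycling of calcium by the SERCA pump of the sarcoplasmic reticulum, which sarcolipin and phospholamban can alter. Muscle burns glucose and fatty acids in its mitochondria to pay for both. The comparison asks what the muscle of cold-exposed rats looks like when UCP1 is lacking.

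The deposited totals of the 16 libraries ran from 7.28e+06 to 2.58e+07 counts, with medians of 1.09e+07 in both groups. All 16 were dominated by muscle transcripts: the skeletal actin Acta1 averaged 39490 ± 4921 CPM (mean ± SD, n = 7) in cold controls and 37040 ± 5200 (n = 9) in cold knockouts. CPM here are counts scaled to a library total of 1000000, after adjustment by TMM, a method that evens out composition between libraries. Ucp1 itself was not analysed here, nor were the fast-fibre genes Atp2a1, Myh2 and Myh4, so the genotype labels have no check by the targeted gene. Cold control replicates 3 and 6 stood apart. The summed share of 30 intestinal epithelial transcripts, a list written after earlier results of these data had shown them, was 0.237% of counts in replicate 3 and 0.184% in replicate 6, against 0.055% to 0.101% in the other 5 cold controls and 0.0443% to 0.0737% in the 9 cold knockouts. Cold control replicate 2 held the largest haemoglobin share, 0.658%, against 0.0696% to 0.189% in the other 15. The intestinal share averaged 0.115% ± 0.0683 in controls (0.0768% without replicates 3 and 6) and 0.0574% ± 0.00972 in knockouts, which is a description, since the list was chosen from these data. In all, 5 library measures, this one included, were compared by a two-sided exact permutation test and adjusted over the 5. The share of the mitochondrial transcripts (8.56% ± 1.04 against 9.75% ± 1.28, adjusted p = 0.158, exact) and the other 3 measures did not pass (adjusted p = 0.868 for each, exact).

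**Figure D1:**
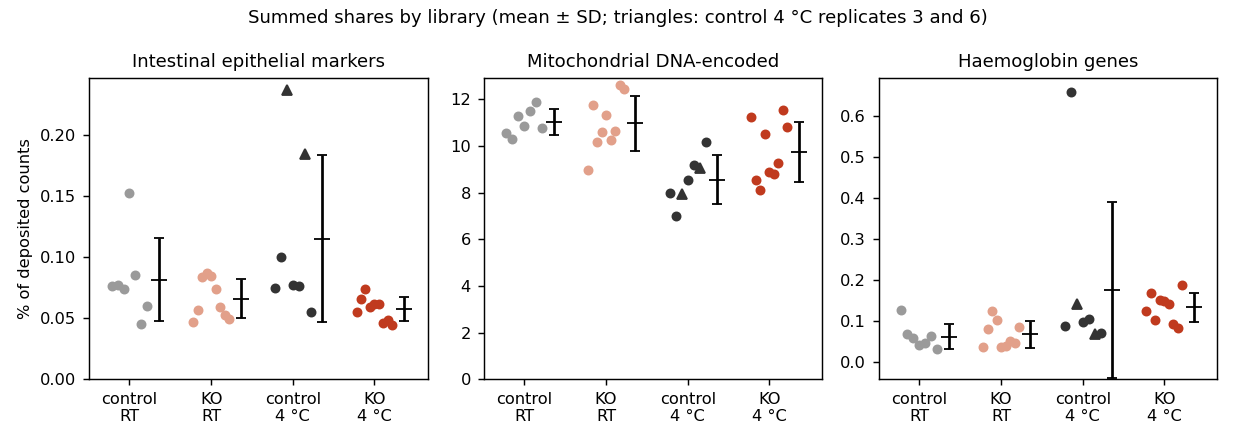
Share of deposited counts (vertical axes, percent) from intestinal epithelial markers, mitochondrial DNA-encoded genes and haemoglobin genes in each library, by genotype and temperature (RT, room temperature); bars are mean ± SD. Cold control replicates 3 and 6 (triangles) have the highest intestinal shares of all libraries, 0.237% and 0.184%.

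No gene passed an adjusted p of 0.05 between cold knockouts and cold controls. In the 16 cold libraries 10804 genes were tested with edgeR's quasi-likelihood test, and 0 (0%) were called; the smallest Benjamini-Hochberg adjusted p was 0.0867. At an unadjusted p under 0.05 stood 1733 genes (16%), 634 of them higher in knockouts (5.87%) and 1099 lower (10.2%). On the lower side, 951 of the 1099 genes (86.5%) had their highest value in cold control replicate 3 or 6. Of all tested genes 22.6% did, but these include genes higher in knockouts, which tend to peak in a knockout library. The 2 shares are thus not like for like. Of the 232 genes that were at least 2-fold lower in knockouts by the fitted value, 225 peaked in replicate 3 or 6, again among genes chosen as lower. With both replicates left out, 0 of 11039 genes were called and 826 (7.48%) had an unadjusted p under 0.05, 350 higher (3.17%) and 476 lower (4.31%). Of the 634 higher genes 282 (44.5%) were among these with the same sign, and of the 1099 lower genes 406 (36.9%). With 1 surrogate variable or the intestinal level as a covariate, 448 and 447 genes had an unadjusted p under 0.05, and the smallest adjusted p was 0.996 and 0.998.

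Which tool and which libraries were used decided how many genes were called. DESeq2 on the same 10804 genes called 522 (4.83%), 89 higher and 433 lower, and 423 of those 433 peaked in cold control replicate 3 or 6. Without these libraries DESeq2 called 2 genes, Nqo1 higher and Reg3b lower. These were 0.0241% of the 8285 genes to which it then gave an adjusted p, a smaller set than the 10804. Leaving out cold control replicate 7 alone, the cold control with the lowest intestinal share, gave 579 calls in edgeR (5.31%; 94 higher, 485 lower, 473 of the lower ones highest in replicate 3 or 6), and leaving out any other single library gave 0. A fit that took the spread from all 32 libraries called 6 genes (0.0518%): Nqo1, Klhl38, Pskh1 and Best3 higher, Tmem102 and Sult1d1 lower. The median 95% interval of a log2 fold change reached 0.31 to either side over all tested genes, and 0.253 over the 7580 genes of at least 5 CPM.

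**Figure D2:**
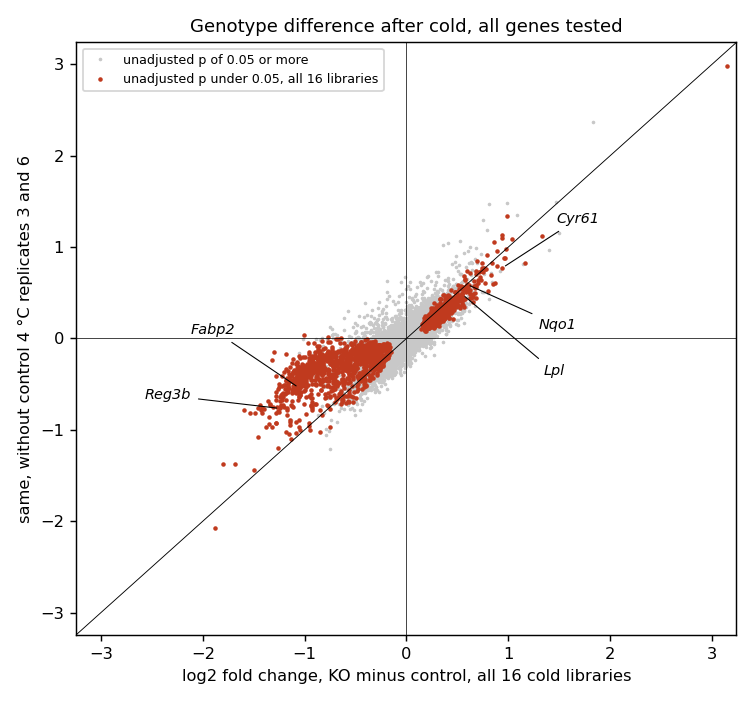
Log2 fold change of cold knockouts against cold controls for each tested gene, with all 16 libraries (horizontal) and without cold control replicates 3 and 6 (vertical); red, unadjusted p under 0.05 with all 16; the diagonal marks equal values. Reg3b (-1.24 against -0.77) and Fabp2 (-1.05 against -0.54) lie above the diagonal, while Nqo1 lies on it (0.59 in both).

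Nqo1 had the smallest p of the comparison. It encodes NAD(P)H quinone dehydrogenase 1, a cytosolic enzyme that reduces quinones by 2 electrons and a standard target of the oxidative stress factor NRF2. Its level was 20.4 CPM in the lowest cold control, 26.5 in the median and 30.3 in the highest; in cold knockouts the lowest was 31.3, the median 39.7 and the highest 50.6. All 9 knockout libraries were thus above all 7 controls, which 7 of the tested genes did in this direction (0.0648%; the others were Snx19, Npr2, Tpra1, Armt1, Syt11 and Chtf8) and 3 in the other (0.0278%; Espn, Tecr and Ptprh). The fitted difference was 0.59 ± 0.11 (log2, SE), 1.51-fold, with a 95% interval of 0.37 to 0.81, an unadjusted p of 1.31e-05 and an adjusted p of 0.0867. It was as large without control replicates 3 and 6 (0.59, adjusted p = 0.166). DESeq2 called it with all libraries (adjusted p = 0.00072) and without these 2 (0.00348). At room temperature, in libraries that share none with the cold comparison, Nqo1 ranged from 13.7 to 23.4 CPM in controls (median 15.9) and from 18.7 to 26.9 in knockouts (median 23.3). There it rose in knockouts by 0.46 ± 0.11 (log2, SE; adjusted p = 0.019 in the fit of all 32 libraries), where 303 of 11594 genes (2.61%) were called, although the groups overlapped and edgeR on the room-temperature libraries alone called 0 of 11066 genes (0%; 1685 at an unadjusted p under 0.05) and gave Nqo1 0.45 (adjusted p = 0.0955). The genotype difference did not pass the test of a difference between temperatures (0.15 ± 0.15, adjusted p = 0.718).

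Nqo1 was one of 23 tested genes of an oxidative stress list. Of these, 3 were higher and 4 lower at an unadjusted p under 0.05 (1 and 1 without control replicates 3 and 6), and their median log2 fold change was -0.01, beside 0.01 over all tested genes; it was above 0 with 1 surrogate variable and in the fit of all 32 libraries. The sequence upstream of the Nqo1 start is shown because this gene had the smallest p. It is RefSeq sequence of the GRCr8 assembly, chr19:52220268-52220517, minus strand, the 250 bases before the annotated start, printed 5′ to 3′ with TATAAA in capitals.
Nqo1 upstream: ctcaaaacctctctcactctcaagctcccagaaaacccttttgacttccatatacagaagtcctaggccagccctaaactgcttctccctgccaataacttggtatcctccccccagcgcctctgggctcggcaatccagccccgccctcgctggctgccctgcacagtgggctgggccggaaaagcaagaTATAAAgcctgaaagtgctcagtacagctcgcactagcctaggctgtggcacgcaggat
TATAAA occurs once in the window, from position 192, on the coding strand; 12.9% of the 33469 upstream windows of this length in the table hold it on either strand. The core of the antioxidant response element, TGACNNNGC, is on neither strand of this window, and 10.1% of the windows hold it. These letter matches describe the window only.

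Nqo1 lies on the same chromosome as Ucp1, chromosome 19 in GRCr8, and this holds for Pskh1 and Hook2 as well. In the order of tested genes, 66 genes lie between Ucp1 and Nqo1, 42 between Ucp1 and Pskh1, on the same side, and 28 between Ucp1 and Hook2 on the other. The 295 tested genes of the chromosome had an unadjusted p under 0.05 in 48 cases (16.3%), against 1457 of 9508 genes (15.3%) on the other chromosomes. Of the 50 tested genes nearest to Ucp1, 25 on each side, 7 did (14%; 5 higher, 2 lower). The nearest gene before Ucp1, Scoc, had 42.3 CPM in cold controls and 48.5 in cold knockouts (log2 0.18 ± 0.09, adjusted p = 0.299), and the nearest after it, Tbc1d9, had 0.997 and 1.37 CPM (0.46 ± 0.40, adjusted p = 0.615).

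The genes of next smallest p on the higher side, and Tecr on the lower side, had adjusted p-values from 0.0867 to 0.0883, and none passed 0.05. Klhl38, a kelch-family protein of striated muscle, ranged from 15.4 to 23.8 CPM in cold controls (median 17.7) and from 22.2 to 36.8 in knockouts (median 27.5), and only control replicate 7 reached into the knockout range. Its difference was 0.61 ± 0.12 (log2, SE; adjusted p = 0.0867; 0.54 without control replicates 3 and 6). Best3, a bestrophin chloride channel, ranged from 10.2 to 17.9 CPM (median 13.8) and from 14.8 to 31.0 (median 23.2), with a difference of 0.67 ± 0.14. Zfp36l1, an RNA-binding protein that promotes decay of AU-rich mRNAs, ranged from 156 to 289 CPM (median 218) and from 245 to 385 (median 326), with a difference of 0.50 ± 0.11. For each of these genes all 9 knockouts were above the control mean. Rogdi (0.54 ± 0.12), the protein kinase Pskh1 (0.38 ± 0.08), the splicing factor Tra2a (0.46 ± 0.10) and Ttc19, an assembly factor of respiratory complex III (0.45 ± 0.11), had differences of the same kind. On the lower side, Tecr, which carries out the last step of very long chain fatty acid elongation, ranged from 28.6 to 37.9 CPM in controls (median 31.6) and from 19.2 to 28.5 in knockouts (median 23.5). Its groups did not overlap, and the difference was -0.42 ± 0.10 (log2, SE, adjusted p = 0.0883), and -0.38 without control replicates 3 and 6. Tecr was not the lower gene of smallest p. Aadac (-1.35 ± 0.26, adjusted p = 0.0867), Hook2 (-0.69 ± 0.15, adjusted p = 0.0883) and Cebpa (-0.57 ± 0.12, adjusted p = 0.0883) were lower too. Without control replicates 3 and 6 their differences were -0.86, -0.41 and -0.39. All of them, Tecr included, had their highest value in control replicate 3 or 6.

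**Figure D3:**
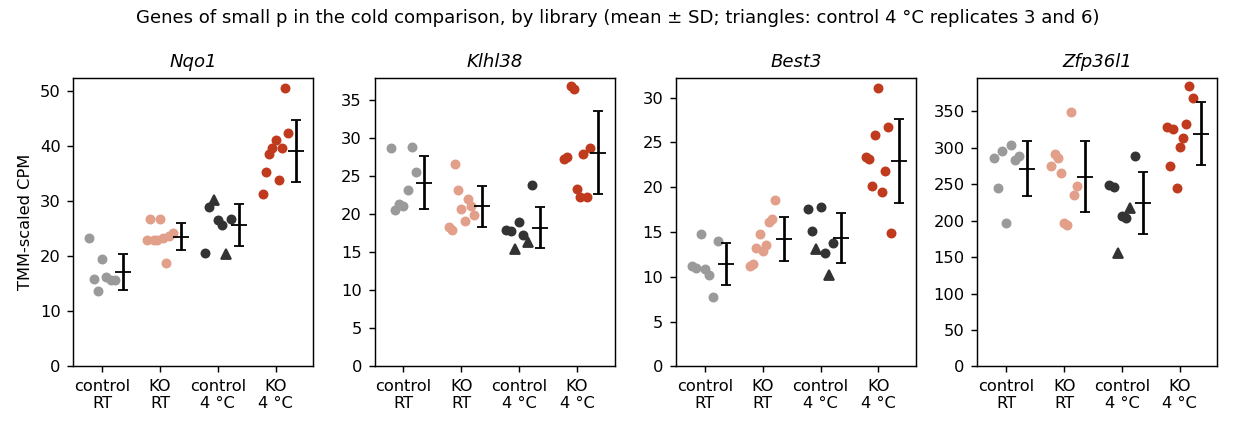
TMM-scaled CPM (vertical axes) of Nqo1, Klhl38, Best3 and Zfp36l1 in each of the 32 libraries, by genotype and temperature (RT, room temperature), with mean ± SD; triangles mark cold control replicates 3 and 6. All 9 cold knockouts lie above all 7 cold controls for Nqo1, and Klhl38 has a median of 20.7 CPM in room-temperature knockouts, below the 23.1 of their controls.

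The calcium-cycling genes that muscle heat production draws on showed no called difference. Sln, sarcolipin, the small peptide that uncouples the SERCA pump, ranged from 10.1 to 73.1 CPM in cold controls (median 21.7) and from 12.9 to 42.8 in cold knockouts (median 31.8). The groups overlapped widely, and the highest value was that of control replicate 2, the library with the high haemoglobin share. The difference was 0.10 ± 0.36 (log2, SE), with a 95% interval of -0.67 to 0.88. Pln, phospholamban, the related pump inhibitor of slow fibres, ranged from 7.45 to 12.3 CPM (median 10.3) and from 9.25 to 18.0 (median 12.9), a difference of 0.31 ± 0.13 (adjusted p = 0.235). Atp2a2, the slow-fibre pump SERCA2, had medians of 986 and 1013 CPM and an interval of -0.22 to 0.37. Ryr1, the calcium release channel, had medians of 842 and 797 CPM (-0.17 ± 0.13, interval -0.44 to 0.09). Of 26 tested genes of the list, 5 were higher at an unadjusted p under 0.05 and 1 lower, where all tested genes gave 5.87% and 10.2%; without control replicates 3 and 6 the counts were 2 and 0. The smallest p-values belonged to Cacna2d1, a subunit of the calcium channel of the T-tubule (medians 249 and 297 CPM, 0.25 ± 0.08, adjusted p = 0.0972), and to Sypl2, a protein of the triad junction (1045 and 1206 CPM, 0.32 ± 0.10, adjusted p = 0.108). Casq1, the calcium-binding protein of the fast-fibre store, had medians of 3074 and 3697 CPM (0.25 ± 0.12, adjusted p = 0.291; 0.13 without control replicates 3 and 6).

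Myh7 and the row named Myh1 were close between genotypes, while most slow-fibre genes lay slightly lower in knockouts, without a call. Myh7, the slow myosin heavy chain, ranged from 2226 to 4065 CPM in cold controls and from 1781 to 4044 in cold knockouts, with a difference of -0.01 ± 0.15 (log2, SE; 95% interval -0.32 to 0.30). The row named Myh1, a fast myosin heavy chain whose Entrez ID and symbol point to different fast myosin genes, had medians of 24250 and 23170 CPM (0.08 ± 0.12, interval -0.18 to 0.34). These near-identical genes can share reads, so its identity is uncertain. Of 17 tested slow-fibre genes 2 had a positive difference, and the median was -0.11 (-0.16 without control replicates 3 and 6). At an unadjusted p under 0.05, 1 was lower with all 16 libraries and 3 without these replicates. The 1 gene lower with all 16 was Tnnc1, the slow troponin C, with medians of 1063 and 805 CPM (-0.35 ± 0.14, adjusted p = 0.218). Of 17 fast-fibre genes 12 had a positive difference and 2 an unadjusted p under 0.05 (0 without control replicates 3 and 6), with a median of 0.08, which turned negative with 1 surrogate variable or the intestinal level as a covariate. Tnni2, the fast troponin I, had medians of 11900 and 14110 CPM (0.28 ± 0.13, adjusted p = 0.287).

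Genes of fatty acid uptake and oxidation had, of the 42 lists looked up, the largest share of members higher in knockouts at an unadjusted p under 0.05. Of 26 tested, 12 were higher at that level and 0 lower, where all tested genes gave 5.87% and 10.2%. Of the 26, 24 had a positive difference, the median was 0.23 against 0.01 over all tested genes, and 0 were called. Without control replicates 3 and 6, 7 were higher and 0 lower, where all tested genes gave 3.17% and 4.31%. The list median was then 0.18. Lpl, lipoprotein lipase, which frees fatty acids from circulating triglyceride, ranged from 372 to 561 CPM in cold controls (median 433) and from 512 to 1081 in cold knockouts (median 603). Control replicates 4 and 7, at 550 and 561 CPM, reached into the knockout range, and knockout replicate 7 was the highest. The difference was 0.55 ± 0.14 (log2, SE; 95% interval 0.25 to 0.84; adjusted p = 0.0883; 0.48 without control replicates 3 and 6), and at room temperature it was 0.00. Downstream of uptake, Fabp3, the muscle fatty acid binding protein, had medians of 758 and 882 CPM (0.29 ± 0.12, adjusted p = 0.194). Cpt1b and Cpt2, the carnitine acyltransferases that pass fatty acids into mitochondria, had differences of 0.31 ± 0.13 (adjusted p = 0.214; 0.18 without control replicates 3 and 6, -0.01 with 1 surrogate variable) and 0.28 ± 0.09 (adjusted p = 0.0987), the latter from 87.9 to 132 CPM in controls and from 110 to 139 in knockouts. In the matrix, Acadl, long-chain acyl-CoA dehydrogenase, had medians of 647 and 859 CPM (0.31 ± 0.11, adjusted p = 0.143), and Decr1, the reductase needed for unsaturated fatty acids, 87.9 and 133 CPM (0.46 ± 0.15, adjusted p = 0.116). Genes of stored fat, which come from several lists and were chosen after their values were seen, went both ways. Plin5, the droplet protein that tethers droplets to mitochondria (26.0 and 34.7 CPM, 0.46 ± 0.12, adjusted p = 0.0883), and Lipe, hormone-sensitive lipase (41.3 and 54.5 CPM, 0.38 ± 0.09, adjusted p = 0.0883), had positive differences. Dgat1, which makes triglyceride, had medians of 61.8 and 53.6 CPM (-0.45 ± 0.16, adjusted p = 0.152; -0.09 without control replicates 3 and 6), and the droplet protein Cidec 2.67 and 2.65 CPM (-0.43 ± 0.36, adjusted p = 0.605; -0.15). For Lpl, Plin5, Cpt2 and Lipe all 9 knockouts were above the control mean.

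**Figure D4:**
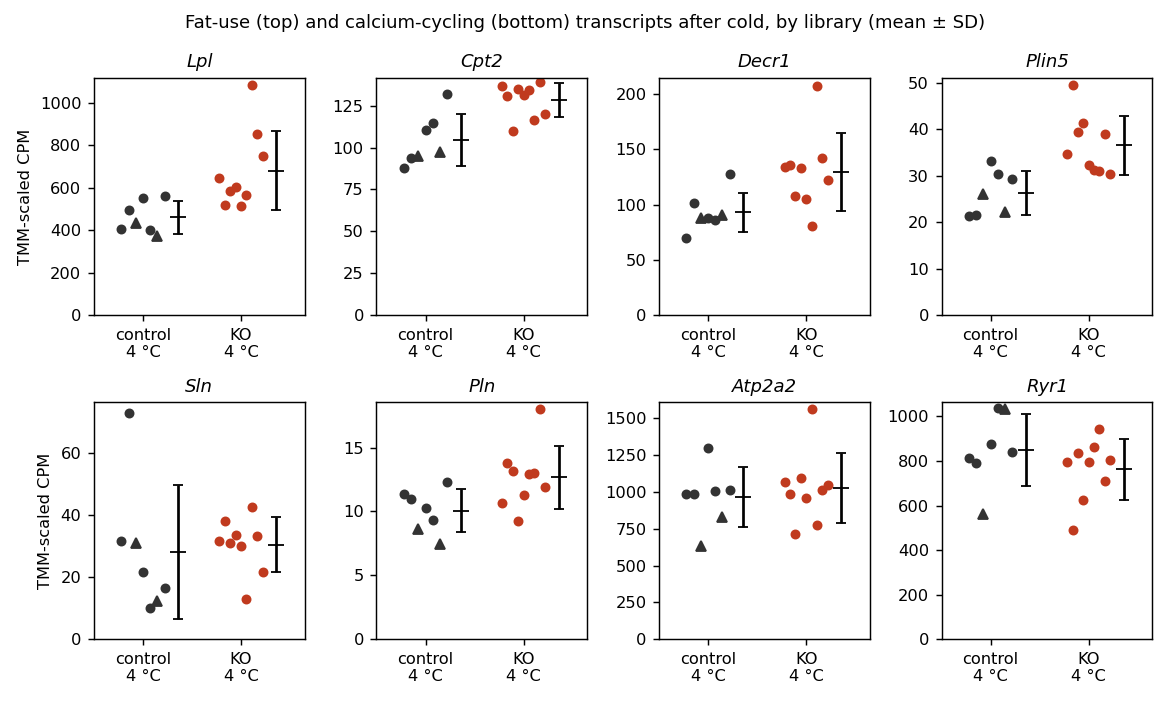
TMM-scaled CPM (vertical axes) of 4 fat-use transcripts (top) and 4 calcium-cycling transcripts (bottom) in the 7 cold controls and 9 cold knockouts, with mean ± SD; triangles mark cold control replicates 3 and 6. Lpl has medians of 433 and 603 CPM. For Sln the knockout range lies within the control range, and for Atp2a2 and Ryr1 the ranges overlap in large part.

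The list of PPAR and fasting targets, which shares members such as Plin5 with these genes, was looked up beside them. Of 15 tested, 2 were higher and 1 lower at an unadjusted p under 0.05 (1 and 0 without control replicates 3 and 6), with a median of 0.07. Pdk4, the kinase that closes pyruvate dehydrogenase when fat is burned, had medians of 5.64 and 6.83 CPM (0.18 ± 0.28, log2, SE; from 0.004 without knockout replicate 1 to 0.335 without control replicate 4). Ucp3, the muscle relative of UCP1, ranged from 53.9 to 255 CPM in controls (median 92.4) and from 44.1 to 248 in knockouts (median 149). Its difference of 0.43 ± 0.33 had an interval of -0.28 to 1.14, and control replicate 4 alone held the 255 CPM, the next control being at 103; without it the difference was 0.78 (adjusted p = 0.166). Ucp2, the more widely expressed relative, had medians of 10.3 and 10.1 CPM (-0.06 ± 0.27, interval -0.63 to 0.51).

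Mitochondrial genes lay slightly to the higher side without a call. Of 45 tested nuclear genes of oxidative phosphorylation 35 had a positive difference, 5 were higher and 0 lower at an unadjusted p under 0.05 (2 and 0 without control replicates 3 and 6), and the median was 0.10. Sdha, the catalytic subunit of complex II, ranged from 136 to 179 CPM in controls (median 156) and from 170 to 216 in knockouts (median 183), a difference of 0.25 ± 0.08 (log2, SE; adjusted p = 0.105). Of 12 transcripts of mitochondrial DNA 11 had a positive difference (median 0.17). Mt-atp6, an ATP synthase subunit, had medians of 33520 and 39860 CPM (0.29 ± 0.13, adjusted p = 0.258). The exception was Mt-nd6, the complex I subunit read from the other strand of the mitochondrial genome, with medians of 322 and 255 CPM (-0.31 ± 0.11, adjusted p = 0.146) and a difference of -0.44 at room temperature. In the citric acid cycle, where 3 of 23 genes were higher at an unadjusted p under 0.05 and 0 lower, Fh, fumarase, had medians of 148 and 196 CPM (0.32 ± 0.09, adjusted p = 0.0883) and Cs, citrate synthase, 86.7 and 95.6 CPM (0.23 ± 0.09, adjusted p = 0.176). At room temperature Fh was higher in knockouts by 0.97 ± 0.23 in the fit of all 32 libraries (adjusted p = 0.0206). The knockouts were split there. Column KO8 and replicate 3 held 63.1 and 52.2 CPM, beside 53.4 to 139 CPM in controls, and the other knockouts held 181 to 248 CPM. With edgeR on the room-temperature libraries alone the difference was 0.96, without a call (adjusted p = 0.165). The mitochondrial ribosome (34 tested, 5 higher, 1 lower, 3 and 0 without control replicates 3 and 6, median 0.08; Mrpl13 0.27 ± 0.09) and the biogenesis regulators (18 tested, 0 higher, 0 lower, median 0.06, below 0 with 1 surrogate variable or the intestinal level as a covariate) showed no call. Ppargc1a, the coactivator that drives mitochondrial gene expression and responds to cold, had medians of 4.12 and 3.32 CPM (-0.26 ± 0.25, interval -0.77 to 0.26; 0.02 without control replicates 3 and 6).

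Slc25a25, a carrier of ATP-magnesium and phosphate across the inner membrane, had the largest difference among the 22 mitochondrial carriers after Slc25a30, a gene of low level. Slc25a25 ranged from 8.24 to 15.1 CPM in cold controls (median 10.5) and from 10.5 to 49.0 in cold knockouts (median 16.9). The difference was 0.97 ± 0.30 (log2, SE, adjusted p = 0.109), the same without control replicates 3 and 6. Knockout replicates 1 and 3 held 49.0 and 37.0 CPM, and the other knockouts 10.5 to 19.0. With 1 library left out the difference ran from 0.712 to 1.071. In glycolysis and glycogen 3 of 29 genes were higher and 1 lower at an unadjusted p under 0.05 (1 and 0 without control replicates 3 and 6). The lower one was Slc2a1, the basal glucose transporter, with medians of 13.2 and 9.05 CPM (-0.78 ± 0.24, adjusted p = 0.104). Its highest value was in control replicate 3, and without replicates 3 and 6 the difference was -0.24. In lipid synthesis 3 of 20 were higher and 6 lower, and 0 in either direction without these libraries.

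Genes of muscle maintenance gave no call either. In the atrophy and autophagy list 3 of 17 were higher and 0 lower at an unadjusted p under 0.05 (median 0.15), where all tested genes gave 5.87% and 10.2%; 1 was higher without control replicates 3 and 6. Trim63, the ubiquitin ligase MuRF1, ranged from 265 to 397 CPM in cold controls (median 316) and from 312 to 641 in cold knockouts (median 401), a difference of 0.36 ± 0.12 (log2, SE; adjusted p = 0.126), with knockout replicate 7 highest. In growth control 5 of 19 were higher and 1 lower, with a median of 0.13; without control replicates 3 and 6 the counts were 2 and 1 and the median 0.01. Fst, follistatin, which binds and blocks myostatin and activin, ranged from 3.53 to 16.8 CPM (median 7.55) and from 8.64 to 22.1 (median 14.4). Its difference was 0.87 ± 0.31 (adjusted p = 0.157), and 0.605 without control replicates 3 and 6. Acvr2b, a receptor for these ligands, had medians of 7.60 and 5.36 CPM (-0.53 ± 0.15, adjusted p = 0.0883), and Irs2, an adaptor of the insulin receptor, 16.7 and 22.4 CPM (0.51 ± 0.19, adjusted p = 0.175). Mstn, myostatin itself, a member of the atrophy list, had medians of 5.26 and 7.68 CPM (0.41 ± 0.16, adjusted p = 0.192). Among the acetylcholine receptor subunits, which denervation raises, Chrnb1 had medians of 34.8 and 45.4 CPM (0.41 ± 0.12, adjusted p = 0.0883; 0.25 without control replicates 3 and 6), while Chrnd had 67.0 and 68.4 CPM (0.01 ± 0.12, interval -0.25 to 0.26).

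Clock, stress and cold-response genes were looked up as well. Per2, a repressor of the circadian clock, ranged from 22.2 to 54.8 CPM in cold controls (median 36.7) and from 13.1 to 30.1 in cold knockouts (median 23.8), a difference of -0.65 ± 0.19 (log2, SE; adjusted p = 0.0952). Tef, a clock output factor, had medians of 152 and 129 CPM (-0.37 ± 0.10, adjusted p = 0.0883; -0.23 without control replicates 3 and 6). All 9 knockouts were below the control mean for both; 1 of the other tested clock genes was higher and 0 lower at an unadjusted p under 0.05, of 17 in the list, and the labels used here give no hour of dissection. Hspb8, a small heat shock protein that works with autophagy, ranged from 737 to 1180 CPM (median 942) and from 1005 to 1919 (median 1180), a difference of 0.44 ± 0.12 (adjusted p = 0.0883); 3 of 19 genes of its list were higher and 1 lower (2 and 1 without control replicates 3 and 6). Of the 5 genes named as cold-induced or temperature-sensitive RNA-binding proteins and splicing factors, Rbm3 had medians of 93.0 and 69.6 CPM (-0.32 ± 0.14, adjusted p = 0.258) and Srsf5 7.55 and 5.26 CPM (-0.56 ± 0.16, adjusted p = 0.0883; -0.34 without control replicates 3 and 6). The thyroid hormone list had 1 of 9 higher and 1 lower, and the adrenergic list 2 of 14 higher and 1 lower.

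Markers of other cell types bear on bulk tissue, in which fewer cells of a type and less RNA per cell cannot be told apart. Of the intestinal list 27 of 27 tested members were lower in knockouts at an unadjusted p under 0.05, with a median of -1.03 (16 of them and -0.41 without control replicates 3 and 6); 0 were called. The list was written after these data had shown such transcripts, so its count is no independent evidence of a direction. Reg3b, an antibacterial lectin of gut epithelium, ranged from 13.3 to 51.8 CPM in cold controls (median 21.1) and from 9.21 to 14.7 in cold knockouts (median 10.6), a difference of -1.24 ± 0.23 (log2, SE; adjusted p = 0.0867). Apob, the protein of chylomicrons (7.55 and 3.44 CPM, -1.43 ± 0.29; -0.78 without control replicates 3 and 6), and Fabp2, the intestinal fatty acid binding protein (22.2 and 14.7 CPM, -1.05 ± 0.25), had their highest values in control replicates 6 and 3. The summed level of the list ran from 547 to 2042 CPM in controls and from 449 to 668 in knockouts, and its part in the other differences was not tested.

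Endothelial markers had 6 of 17 higher and 0 lower at an unadjusted p under 0.05 (median 0.24), beside 5.87% higher over all tested genes. Without control replicates 3 and 6 these markers had 1 higher, beside 3.17%. Their summed level ran from 489 to 661 CPM in controls and from 607 to 774 in knockouts. Esam, a junction protein of endothelium, had medians of 73.0 and 94.3 CPM (0.29 ± 0.10, log2, SE; adjusted p = 0.152; 0.16 without control replicates 3 and 6), and Eng, the co-receptor endoglin, 63.4 and 87.1 CPM (0.38 ± 0.14, adjusted p = 0.175; 0.24 without them). Macrophage markers had 4 of 15 lower and 0 higher (median -0.20), beside 10.2% lower over all tested genes, and 2 lower without control replicates 3 and 6 (median -0.08). Ctss, the lysosomal protease cathepsin S, had medians of 12.6 and 8.26 CPM (-0.89 ± 0.24, adjusted p = 0.0883), and a difference of -0.42 without control replicates 3 and 6. The summed level of this list ran from 502 to 979 CPM in controls and from 447 to 667 in knockouts. Fibroblast and matrix genes had 1 of 22 higher and 0 lower: Cyr61, a matricellular protein induced by stretch and growth factors, which ranged from 54.0 to 129 CPM in controls and from 49.5 to 312 in knockouts (0.94 ± 0.32, adjusted p = 0.145). At room temperature Cyr61 was higher in knockouts by 3.01 in the fit of all 32 libraries (adjusted p = 0.013). Knockout column KO8 and replicate 3 held 8.31 and 1.86 CPM there, within the control range of 1.34 to 30.4 CPM. The other room-temperature knockouts held 43.4 to 261 CPM. With edgeR on the room-temperature libraries alone its difference was also 3.01, without a call (adjusted p = 0.133). Adipocyte markers had 1 of 12 higher and 0 lower, and the defining gene Adipoq averaged 18.1 ± 9.12 CPM in controls and 17.1 ± 6.11 in knockouts. Of the brown adipocyte list 6 genes were in the table and tested, 0 higher and 1 lower. Erythroid markers (6 tested) and tendon markers (10 tested) had 0 in either direction.

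**Figure D5:**
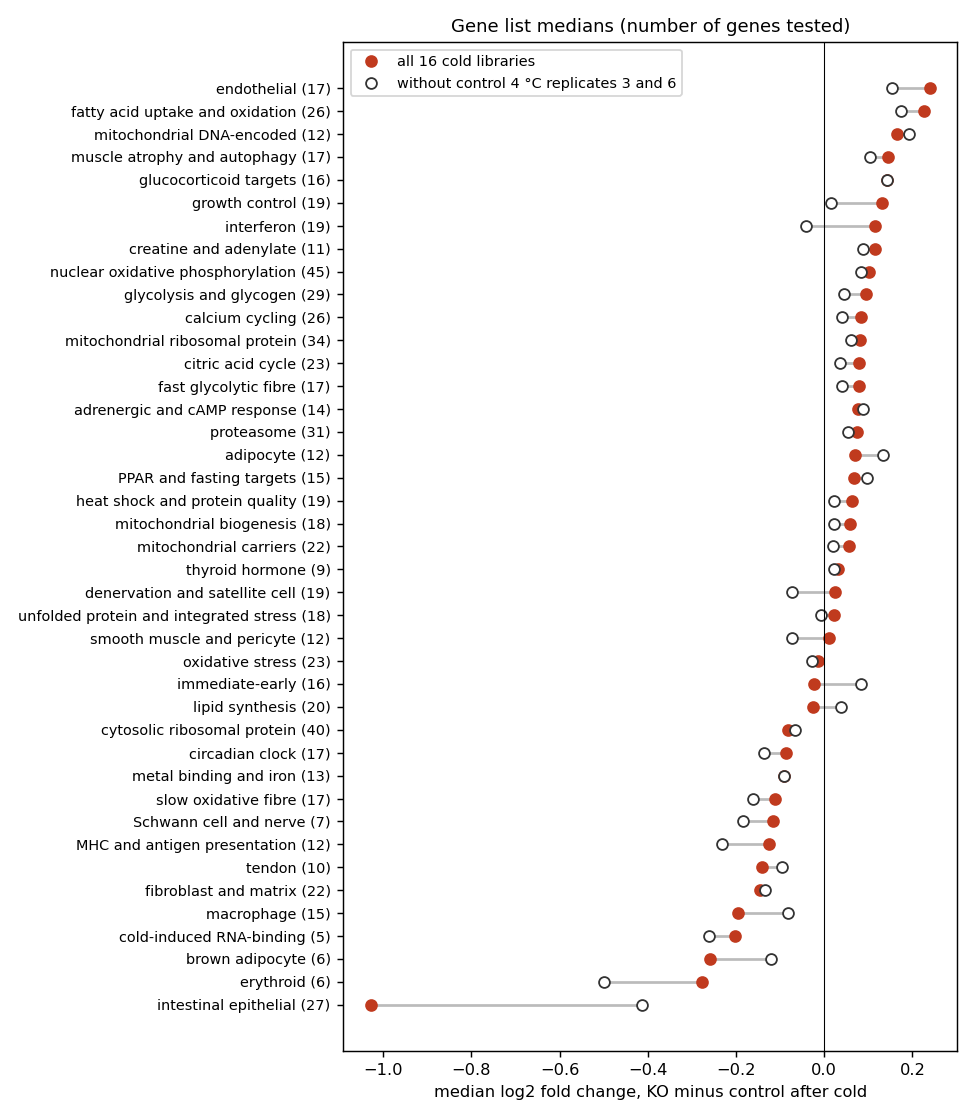
Median log2 fold change of cold knockouts against cold controls (horizontal axis) over the tested genes of each list (vertical axis, number tested in parentheses; lists of fewer than 5 tested genes are left out), with all 16 libraries (filled) and without cold control replicates 3 and 6 (open). The intestinal list moves from -1.03 to -0.41, and fatty acid uptake and oxidation from 0.23 to 0.18.

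The largest fitted value on the higher side belonged to Tlr13, an endosomal receptor for bacterial ribosomal RNA, and came from 2 libraries. Its level was 1.177 to 4.12 CPM in the 7 cold controls, and 81.6 CPM in knockout replicate 5 and 70.7 in replicate 8, with 1.91 to 4.15 in the other 7. The fitted difference was 3.15 ± 1.05 (log2, SE; adjusted p = 0.145). Room-temperature libraries of both genotypes held single high values too, 96.0 CPM in 1 control and 58.3 in 1 knockout. RT1-A2, a class I histocompatibility gene of a family whose members can share reads, split within both cold groups, from 0.778 to 47.2 CPM in controls (median 23.4) and from 1.59 to 134.5 in knockouts (median 62.4), a difference of 1.47 ± 0.87 (adjusted p = 0.441).

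Genes that differed in cold were compared with the room-temperature libraries. Of the 1733 genes with an unadjusted p under 0.05 in cold, 1138 (65.7%) had the same sign of genotype difference at room temperature, against 54.3% of all tested genes, and 265 of them also had an unadjusted p under 0.05 there. Room-temperature control replicate 4 held an intestinal share of 0.153%, against 0.0451% to 0.0858% in the other room-temperature controls. Its part in the shared signs was not tested. The shared signs were not counted by direction or without cold control replicates 3 and 6. There were no cold calls to look up. The test of whether the genotype difference itself differed between temperatures called 3 of 11594 genes (0.0259%), and 1499 (12.9%) had an unadjusted p under 0.05. Klhl38 had a genotype difference of 0.61 in cold and -0.20 at room temperature, where it ranged from 20.5 to 28.8 CPM in controls (median 23.1) and from 17.9 to 26.6 in knockouts (median 20.7). The difference between these was 0.82 ± 0.16 (log2, SE; adjusted p = 0.0479). Asah2, neutral ceramidase, had -0.60 in cold and 0.69 at room temperature (difference -1.28 ± 0.25, adjusted p = 0.0479), and its highest value was in cold control replicate 3. LOC100360316, a placeholder symbol for a gene named Hmgn2-ps4 in RefSeq, had -0.41 in cold and 0.95 at room temperature (difference -1.34 ± 0.25, adjusted p = 0.0441). Its room-temperature groups did not overlap, at 4.15 to 5.59 CPM in controls and 5.85 to 14.5 in knockouts. Without cold control replicates 3 and 6 none of the 3 was called, with differences of 0.75 for Klhl38 (adjusted p = 0.137), -0.96 for Asah2 (0.137) and -1.40 for LOC100360316 (0.0568), and 1236 genes had an unadjusted p under 0.05. Leaving out 1 of the 32 libraries gave 0 calls in 17 of 32 cases and 226 at most, without room-temperature knockout replicate 3.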

How the data were processed

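Gastrocnemius RNA (500 ng per library) was made into QuantSeq 3′ libraries and read as 50 bp forward reads, per the labels' protocols. The authors deposited raw read counts by Ensembl gene. Their second deposited table holds normalised signal, these counts over a size factor (0.585 to 2.06 in the cold libraries); only its gene symbols, Entrez IDs and ratio to the counts were used. R 3.4.3, DESeq2 1.18.1 and the build Rnor_6.0 are named in the submitters' processing notes; for the aligner, the counting tool and the annotation, the sources used here name none. The count table holds 12901 genes and 0 odd counts, so each read appears to have been counted in duplicate; counts divided by 2 were an alternative. Counting error is then small for abundant muscle genes and matters at a few CPM. No 2 libraries of a group agreed within sampling noise (chi-square at least 5.7 for each degree of freedom).

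The tests used edgeR 4.0.16 and limma 3.58.1 under R 4.3.3. Of the 12901 genes, filterByExpr (minimum count 10) kept 10804 in the 16 cold libraries and left 2097 untested. TMM factors and 1 mean per group entered a robust quasi-likelihood fit; p-values were adjusted over all tested genes by Benjamini-Hochberg (threshold 0.05). SE is the absolute log2 fold change over the square root of F. Room-temperature contrasts and the interaction, the genotype difference in cold minus that at room temperature, came from a fit of all 32 libraries. The script was tested on simulated data. Of the room-temperature knockout columns, KO8 and KO9 could be tied to their group but not to 1 sample, so they carry no replicate number. Alternatives were RLE factors, no filter, DESeq2 1.42.0, all 32 libraries, halved counts, replicate block, 1 surrogate variable (sva 3.50.0), TMM without the 20 most abundant genes, and leaving out libraries; the intestinal covariate, the other fits without cold control replicates 3 and 6 (DESeq2, all 32, interaction, knockout replicate 7) were chosen after seeing the data. The labels say the muscles came from 7 and 9 rats; p-values measure the spread between these samples.

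The comparison, the 42 gene lists and the tests were chosen with earlier results of these data known. The rule for named genes took, in each direction, up to 8 genes past the threshold by size and by p with at least 5 CPM, up to 3 per list, the interaction calls, and a fixed set of thermogenic and fibre genes. As no gene passed, genes of smallest p overall and in each list are given by value, and which of them, and Tlr13 and RT1-A2, was decided after their values were seen. Gene symbols are the deposited ones (11693 genes), and 11138 genes were matched by Entrez ID to the RefSeq table of GRCr8, whose gene order also gave the neighbours of Ucp1. A gene of the lists is not reported here.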

Additional observations from a re-analysis of the deposited data

Results flagged for a closer look

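In 14 of 138 sets of values (64 genes and 5 library measures in each cold group), 1 library stood apart from the rest of its group by Dixon's test at the 95% level; chance flags about 1 set in 20. In cold controls these were replicate 2 for Sln (73.1 CPM, next 31.8), for Irs2 (24.1 CPM) and for the haemoglobin share (0.658%, next 0.142%), replicate 4 for Ucp3 (255 CPM, next 103) and Tlr13 (4.12 CPM), and replicate 7 for Klhl38 (23.8 CPM, next 19.0).

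In cold knockouts replicate 7 stood apart for Decr1 (208 CPM, next 142), Trim63 (641 CPM, next 459) and Hspb8 (1919 CPM, next 1344), and replicate 6 for Atp2a2 (1559 CPM, next 1092), Tnnc1 (1309 CPM, next 932), Chrnd (112 CPM, next 85.4) and Eng (117 CPM). Replicate 9 was lowest for LOC100360316 (5.56 CPM, next 9.15).

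The genotype difference in cold minus that at room temperature passed the interaction test in edgeR for Klhl38 (0.82, adjusted p = 0.0479), Asah2 (-1.28, adjusted p = 0.0479) and LOC100360316 (-1.34, adjusted p = 0.0441), each on the log2 scale. Without cold control replicates 3 and 6 the differences were 0.75, -0.96 and -1.40, with adjusted p-values of 0.137, 0.137 and 0.0568.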

How the results depend on the processing

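The count of 0 cold calls in edgeR also came from RLE factors, no filter, halved counts, TMM without the 20 most abundant genes, 1 surrogate variable and the intestinal covariate (448 and 447 genes at an unadjusted p under 0.05, against 1733) and from every edgeR fit without cold control replicates 3 and 6. It became 522 with DESeq2, 2 with DESeq2 without these libraries, 6 with all 32 libraries, and 0 to 579 when 1 library was left out (579 without cold control replicate 7, 0 in the other 15 cases). The 3 interaction calls became 1 with no filter, 112 with DESeq2, 0 without cold control replicates 3 and 6, and 0 to 226 with 1 library left out (226, 124 and 98 without room-temperature knockout replicate 3, knockout column KO8 and control replicate 4). The cause was not tested. The summed intestinal level differed by -509.4 CPM (knockout minus control) and by -176.9 without control replicates 3 and 6, a description, since the list was chosen from these data.

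With the replicate number as a block, 0 cold genes and 0 interaction genes were called, and Chrnd was -0.020. Same-numbered cold libraries correlated from -0.07 to 0.25 in their deviations, and only numbers 2 and 7 matched their own number best. Such correlations cannot show whether same-numbered samples share more than a number.

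Of 1852 values of the 64 genes under alternatives, 1729 kept direction and side of the threshold. No gene had passed in the main comparison, so a value that shrank without changing sign counted as kept. Leave-one-out fits aside, Acadl fell from 0.31 to as little as 0.061, Chrnb1 from 0.41 to 0.076 and Ctss from -0.89 to -0.066. Nqo1 stayed between 0.526 and 0.608, and Tecr between -0.430 and -0.369. A further 67 values passed the threshold (31 with DESeq2, 28 without cold control replicate 7) and 56, from 10 genes, changed sign. Without control replicates 3 and 6, Sln was -0.014 (-0.014 in DESeq2, -0.002 with the room-temperature libraries, -0.089 without knockout replicate 7 too), Atp2a2 -0.053 (-0.052, -0.045 and -0.009), Ppargc1a 0.021 (0.020, 0.028 and 0.066) and Chrnd -0.078 (-0.078, -0.071 and -0.055), and Myh1 was -0.038 without knockout replicate 7 too. With 1 surrogate variable and with the intestinal covariate, Atp2a2 was -0.115 and -0.143, Myh1 -0.065 and -0.089, Ppargc1a 0.121 and 0.139, Slc2a1 0.087 and 0.125, Dgat1 0.092 and 0.099, Chrnd -0.071 and -0.083, and Cpt1b -0.006 and -0.031. Myh7 was 0.002 with all 32 libraries and Chrnd -0.005 with halved counts. With 1 library left out, Sln ran from -0.047 to 0.556, Atp2a2 from -0.037 to 0.157, Myh7 from -0.075 to 0.060, Myh1 from -0.007 to 0.131, Ucp2 from -0.278 to 0.137 and Chrnd from -0.098 to 0.061. Depth limits genes of a few CPM, such as Ppargc1a and Tmem102.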
